A study of Homo sapiens with 12 samples.

Results

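Keratins are the intermediate filament proteins of epithelial cells, and each filament pairs a type I with a type II keratin. In the mammary gland the luminal cells that line the ducts are marked by KRT7, KRT8, KRT18 and KRT19, and the basal, contractile cells beneath them by KRT5, KRT14, KRT15 and KRT17; KRT6A and KRT6B are induced in stressed or wounded stratified epithelium and mark basal-like tumours. The type II genes lie together on chromosome 12, the type I genes on chromosome 17, and KRT18 is the type I gene that sits beside its partner KRT8 in the type II cluster.

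The accessible chromatin at 10 of these genes was examined, 4 luminal (KRT7, KRT8, KRT18, KRT19) and 6 basal (KRT5, KRT6A, KRT6B, KRT14, KRT15, KRT17). A peak was taken when its summit, the base with most fragments over it, lay within 10 kb of the gene's RefSeq span. Peaks of all libraries that overlapped by 1 bp or more were merged, and each merged region went to the nearest of the 10 genes. This gave 66 keratin regions, 51 luminal and 15 basal, of 166523 merged regions in the series, all with hg38 coordinates.

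The libraries came from ATAC-seq, in which a transposase cuts and tags accessible DNA, in the established MDA-MB-453 line, human breast cancer cells that lack estrogen receptor alpha (ER) of their own. Lines carrying doxycycline (Dox) inducible ectopic ER of the K303R mutant, the Y537S mutant or the WT form were each treated with Dox (2 ug/mL) and estradiol (E2, 1 nM), with Dox alone, with E2 alone, or left untreated, for 2 days in McCoy's 5A medium with serum that the labels do not describe as hormone-depleted. Each of the 12 combinations is 1 library without a replicate, each ER form is 1 line, and Dox in cells without an ER transgene was not analysed here. Open means that a library's list held at least 1 peak in the region, and the signal of a region is the pileup, the number of fragments over its highest summit. In these bulk data, fewer cells with an open region and less frequent opening in each cell cannot be told apart.

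The libraries were not alike. The lists held 39522 to 133963 summits, and the share of all merged regions open was 55.7% and 55.1% in Y537S with Dox+E2 and Dox, against 45.7% and 40.9% in Y537S with E2 and untreated. It was 43.8% and 40.9% in K303R with Dox+E2 and Dox, against 25.1% and 17% in K303R with E2 and untreated, and 25.7% and 32.6% in WT with Dox+E2 and Dox, against 30.9% and 20.9% in WT with E2 and untreated. Median signal over background in the regions open in every library was 24.9 in K303R untreated and 47.1 to 102 in the other libraries. The names of the peaks carry run tags: all Y537S libraries share 1 tag, all K303R libraries and the WT libraries without Dox another, and the WT libraries with Dox yet another. Dox and run tag therefore cannot be told apart in WT, nor can the Y537S line, its run tag and its ER form. Among luminal breast markers, summits lay within 1 kb of a gene end of FOXA1, GATA3 and SPDEF in all 12 libraries, with always-open regions at each. Of the 6 basal or myoepithelial markers, TP63, SOX10 and MYLK had an open gene end in 0 libraries, OXTR in 5, ACTA2 in 10 and CDH3 in 12, and 4 of the 6 (TP63, SOX10, MYLK and CDH3) had an always-open region in their window. Of the fibroblast genes PDGFRB, COL1A1 and COL1A2 and the leukocyte genes PTPRC and CD3E, none had an open gene end in all 12 libraries, though COL1A1 had one in 11. Always-open regions in their windows numbered 2 for PDGFRB, 2 for COL1A1 and 1 for PTPRC, and 0 for COL1A2 and CD3E.

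The luminal genes were open at their ends in nearly every library and the basal genes in none. A summit lay within 1 kb of an end of KRT8 and of KRT18 in all 12 libraries, of KRT7 in 11 (not in WT untreated) and of KRT19 in 11 (not in K303R untreated). The spans of KRT8 and KRT18 overlap. The always-open region 1.07 kb inside KRT18 lies over an end of each, so these 2 genes are not separate observations. None of the 6 basal genes had a summit within 1 kb of an end in any library. Of 19970 protein-coding genes, 41.2% had an open gene end in all 12 libraries and 30.7% in 0. No test was made of luminal against basal genes, since the members were chosen with results of these data known.

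Promoter sequences of 1 luminal gene, KRT8, and 1 basal gene, KRT5, are given here, to set a window with peaks beside one without, from the RefSeq table (GRCh38.p14, the assembly family of hg38), which lists 1 start per gene and holds 2 of the 10 genes. Both run 5′ to 3′ on the minus strand from 250 bases before the start to 50 after it. Capitals mark 1 arm of the estrogen response element that ER binds, GGTCA or its complement TGACC.
KRT8 (chr12:52926420-52926719): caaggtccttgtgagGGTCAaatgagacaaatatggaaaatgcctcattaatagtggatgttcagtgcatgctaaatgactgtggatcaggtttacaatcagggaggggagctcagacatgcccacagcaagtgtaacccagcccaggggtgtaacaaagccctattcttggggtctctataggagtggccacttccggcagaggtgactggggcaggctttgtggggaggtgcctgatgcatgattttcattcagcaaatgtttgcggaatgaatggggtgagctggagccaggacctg
KRT5 (chr12:52520345-52520644): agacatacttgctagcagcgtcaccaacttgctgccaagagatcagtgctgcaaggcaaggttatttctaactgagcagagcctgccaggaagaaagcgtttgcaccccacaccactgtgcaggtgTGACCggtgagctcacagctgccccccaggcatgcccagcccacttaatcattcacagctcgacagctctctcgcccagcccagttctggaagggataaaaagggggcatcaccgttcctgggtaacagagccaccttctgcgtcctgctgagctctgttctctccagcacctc

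Peaks overlapped the KRT8 window in 8 of 12 libraries, by up to 164 bp of the region 29.2 kb inside KRT8 described below, and the KRT5 window in 0. Each window held 1 such arm, as did 37.4% of the 35116 promoters in the table when both strands were read. Neither held the full palindromic element (both arms, 3 bases apart; 0.0570% of promoters), a TATA box as TATAAA (11.5%), a GC box as GGGCGG (45.0%), an AP-1 motif as TGAGTCA (4.95%) or a FOXA motif as TGTTTAC (3.42%). The single arm is part of the full element, and the other motifs were searched on both strands as well. The GC content was 50.7% in the KRT8 window and 56.3% in the KRT5 window. The KRT8 start in the table is 1 of several starts of that gene and lies well inside its RefSeq span.

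Over whole windows the median density was 31.2 regions per 100 kb for the luminal genes and 6.05 for the basal genes, against 8.51 (interquartile range 4.00 to 16.2) over all protein-coding genes. Among the basal genes KRT15 stood highest, at 55.7 in a window that also reaches KRT19, and KRT6A, KRT6B and KRT17 were lowest, at 3.83 to 3.98. Over the stretches nearest each class, with every region counted once, the density was 37.7 regions per 100 kb for luminal and 10.4 for basal genes. Of the 51 luminal regions, 7 (13.7%, exact 95% interval 5.70 to 26.3%) were open in all 12 libraries. Of the 15 basal regions, 0 were (interval 0 to 21.8%), and the most widely open basal region was open in 5. Of all merged regions, 9.99% were open in all 12. At least 10 libraries shared 16 luminal regions and 0 basal ones. The exact intervals cover counting error only, and they overlap between the classes.

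**Figure D1:**
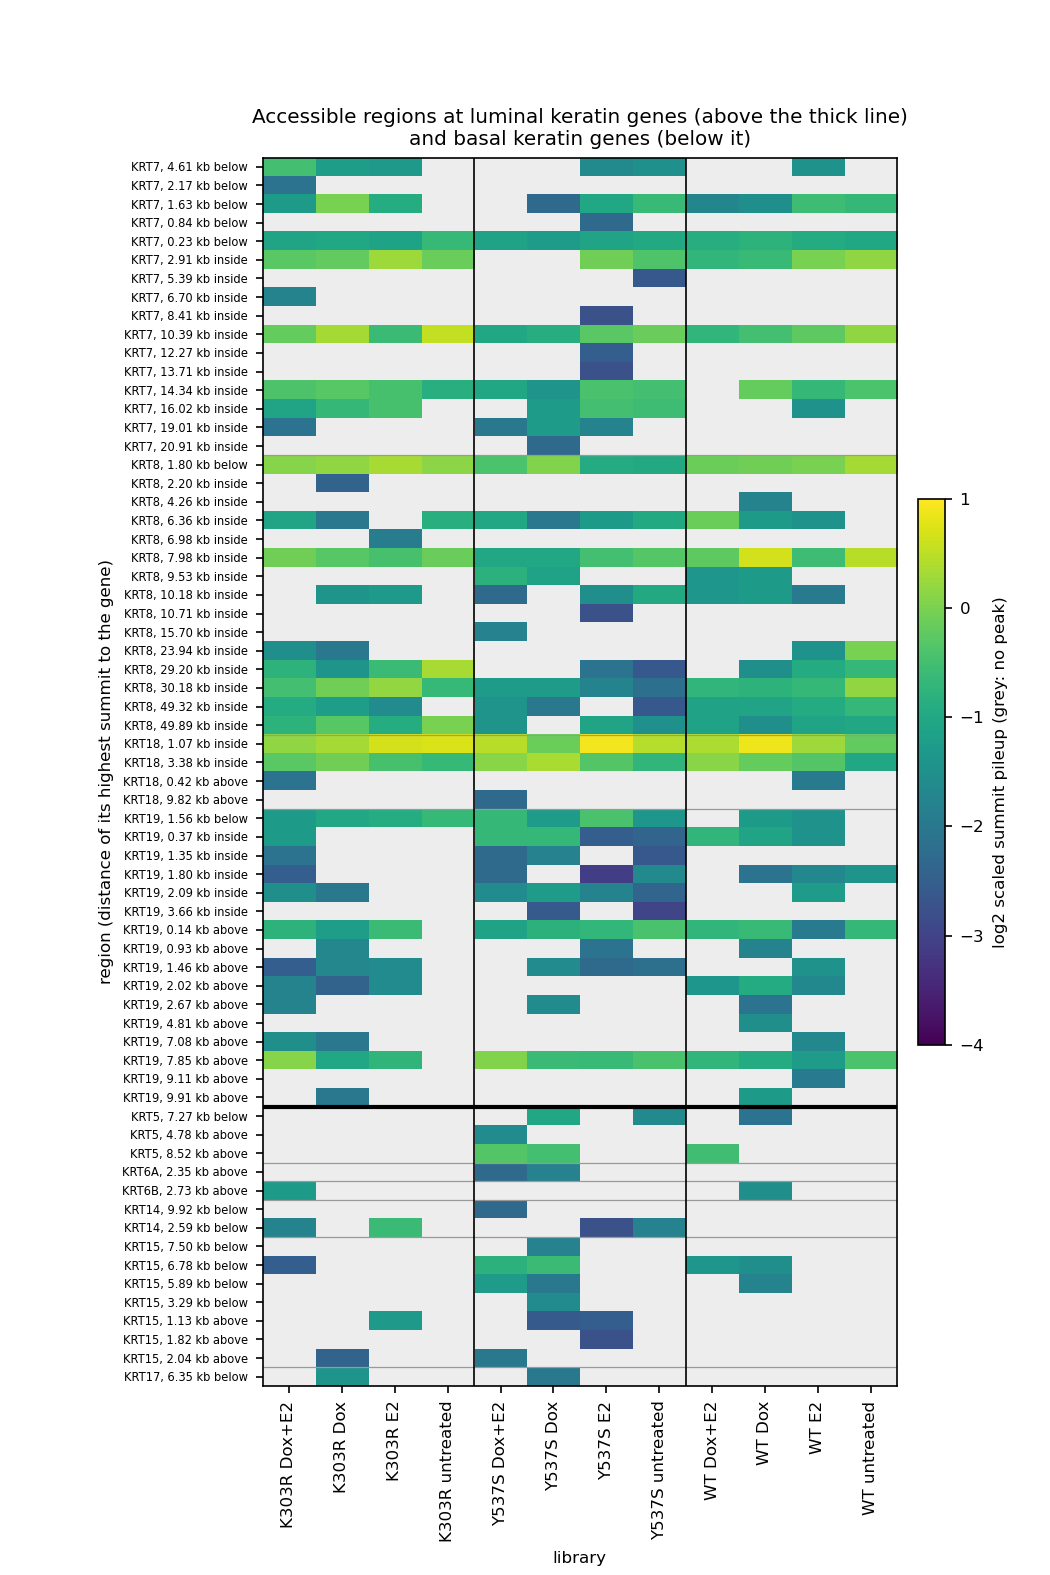
Heat map of the 66 keratin regions (rows, with the distance of the highest summit to the gene; "below" is the lower-coordinate side, "above" the higher, "inside" counts from the lower-coordinate end) in 12 libraries (columns). Colour is the log2 of the summit pileup divided by the library's median over the regions open in all libraries; grey means no peak was listed. The 7 rows filled across all 12 columns belong to KRT7, KRT8 and KRT18, and the most filled row below the thick line has 5 coloured cells.

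KRT7, a type II keratin of ducts and simple epithelia, had 16 regions, 2 of them always open. The region 0.231 kb below its lower-coordinate end (chr12:52232622-52235286, which spans that end) had pileups of 8, 8, 7 and 7 in K303R with Dox+E2, Dox, E2 and untreated, 11, 10, 16 and 16 in Y537S in the same order, and 7, 10, 10 and 4 in WT. Set against the library's median over the always-open regions, this was a scaled pileup of 0.417 to 0.636 in all 12 libraries, so this merged region had a peak everywhere at a below-median level, although in WT untreated no summit lay within 1 kb of the gene's end. The other always-open region, 10.4 kb inside the gene (chr12:52243111-52244799), had scaled pileups of 0.5 to 1.45.

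KRT8 and KRT18, the obligate filament pair of simple epithelia, held the other 5 always-open regions. The RefSeq spans of the 2 genes overlap, and the region with the highest pileup of all 66 lies there, 1.07 kb inside KRT18 (chr12:52948546-52950389). Its pileup was 19, 20, 24 and 18 in K303R with Dox+E2, Dox, E2 and untreated, 33, 22, 64 and 42 in Y537S, and 17, 31, 23 and 7 in WT. The scaled pileup was 0.875 to 1.88, above the median of the always-open regions in 10 of the 12 libraries and below it in Y537S with Dox and in WT untreated. Of the 15 KRT8 regions, 3 were always open: 1.80 kb below the gene (chr12:52895053-52897070, scaled 0.516 to 1.27), 7.98 kb inside it (chr12:52904455-52905592, scaled 0.5 to 1.59) and 30.2 kb inside it (chr12:52927177-52927767, scaled 0.226 to 1.13).

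KRT19, a type I keratin of luminal cells, differed from the other 3 in having many regions and none always open. Its window held 76.9 regions per 100 kb, at the 99.8th percentile of protein-coding genes, and 16 regions were nearest to it. The most widely open, 0.140 kb above its higher-coordinate end (chr17:41527496-41528770) and 7.85 kb above it (chr17:41535761-41537140), each lacked a peak only in K303R untreated, the library with the lowest signal over background. The region at the gene's end had a pileup of 10, 7 and 10 in K303R with Dox+E2, Dox and E2, 11, 14, 21 and 23 in Y537S with Dox+E2, Dox, E2 and untreated, and 8, 11, 5 and 5 in WT. Scaled, it was 0.438 to 0.667 in K303R, 0.458 to 0.742 in Y537S and 0.263 to 0.647 in WT, and the 3 ranges overlapped.

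KRT5 and KRT14, the filament pair of basal cells, had no region in more than 4 libraries. KRT5 had 3 regions, of which the one 8.52 kb above the gene (chr12:52528654-52529306) had the highest basal pileup, 19 and 17 in Y537S with Dox+E2 and Dox and 9 in WT with Dox+E2, against no peak elsewhere. The region 7.27 kb below KRT5 (chr12:52507104-52507423) was open in Y537S with Dox (pileup 12), WT with Dox (pileup 4) and Y537S untreated (pileup 10). KRT14 had 2 regions, and the one 2.59 kb below it (chr17:41579557-41579878) had a pileup of 5 in K303R with Dox+E2, 10 in K303R with E2, 5 in Y537S with E2 and 9 in Y537S untreated. It was thus open in 1 of 6 libraries with Dox and 3 of 6 without. The other KRT14 region, 9.92 kb below the gene, was open in 1 library, Y537S with Dox+E2 (pileup 5). That region lies closer to KRT9, a keratin outside the 10 genes, whose window also holds the region 2.59 kb below KRT14.

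KRT6A, KRT6B and KRT17, keratins of wounded and hyperproliferative epithelium, had 1 region each, open in 2 libraries. The KRT6A region, 2.35 kb above the gene (chr12:52495520-52495774), had a pileup of 5 and 7 in Y537S with Dox+E2 and Dox. The KRT6B region, 2.73 kb above the gene (chr12:52454761-52454980), had a pileup of 7 in K303R with Dox+E2 and 6 in WT with Dox, and the KRT17 region, 6.35 kb below the gene (chr17:41612936-41613252), a pileup of 6 in K303R with Dox and 6 in Y537S with Dox. The lowest pileup listed in a library was 3 to 5, and these values were 5 to 7. Near-identical copies (KRT6C beside KRT6A and KRT6B, KRT16 beside KRT14 and KRT17) make these counts uncertain, since the sources used here do not say how reads that map to several places were handled. The KRT17 region lies closer to KRT16, a keratin outside the genes studied, and is the 1 region in the window of KRT16. That window held a peak in 2 libraries, and the gene end of KRT16 was open in 2. The region thus lies at an end of KRT16 and went to KRT17 only as the nearest of the genes studied.

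KRT15, a type I keratin of basal cells in stratified epithelia, had 7 regions, the most of any basal gene, and its neighbour on the higher-coordinate side is KRT19. The most widely open, 6.78 kb below KRT15 (chr17:41506474-41507153), had a pileup of 3 in K303R with Dox+E2, 14 and 16 in Y537S with Dox+E2 and Dox, and 5 and 6 in WT with Dox+E2 and Dox, with no peak in K303R with Dox or in any of the 6 libraries without Dox. It lies closer to KRT13, a keratin of stratified mucosa outside the 10 genes studied, than to KRT15. The other 6 KRT15 regions were open in 1 to 3 libraries.

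Among regions with a peak, the fold enrichment the authors' caller gave ranks each peak within its own list. In each of the 9 libraries with any basal peak, the median within-list percentile (higher is stronger) of the open luminal regions was above that of the open basal regions, at 43.3 to 67.1 for luminal and 4.73 to 39.0 for basal regions. Taken region by region over libraries, the medians were closer, 26.9 for luminal and 23.6 for basal regions. Regions open in 1 library only were 31.4% of luminal, 33.3% of basal and 32.0% of all regions. The highest median percentile of a region was 91.9 among luminal and 74.6 among basal regions.

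At the 10 kb limit, the regions just inside were 9.82 kb above KRT18 and 9.92 kb below KRT14 (1 library each, pileup 5), and 9.91 kb above KRT19 (2 libraries, highest pileup 7). The regions just outside were 10.1 kb from KRT8 and 10.8 kb from KRT7 (1 library each, pileup 4), and 11.1 kb from KRT19, open in 11 libraries with a highest pileup of 27.

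Of 13 other keratin genes, 3 had an always-open region in their window (KRT3 and KRT4 with 1 each, KRT80 with 2), against 58.6% of protein-coding genes. KRT80, a widely expressed type II keratin, was the one whose gene end was open in all 12 libraries. KRT6C and KRT20 had no peak. Of 10 genes whose products anchor or accompany keratin filaments, 8 had an always-open region, and the exceptions were PKP2, a desmosomal plaque protein, and VIM, the mesenchymal intermediate filament vimentin. The gene end of VIM was open in 0 libraries, though its window held a peak in 10 of 12. A gene end was open in all 12 for 7 of the 10 genes, among them the desmosome genes JUP, PKP1 and PKP3. Those of DSP and PKP2 were open in 6 and 11 libraries.

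Dox was compared with no Dox through the presence of peaks. Luminal regions open numbered 32 and 28 in K303R with Dox+E2 and Dox against 22 and 13 with E2 and untreated, 23 and 24 against 30 and 27 in Y537S, and 18 and 27 against 29 and 17 in WT, of 51. Basal regions open numbered 3 and 2 in K303R with Dox+E2 and Dox against 2 and 0 with E2 and untreated, 7 and 9 against 3 and 2 in Y537S, and 2 and 4 against 0 and 0 in WT, of 15. The basal counts were 2 to 9 in the libraries with Dox and 0 to 3 in those without, and these ranges overlap. In Y537S the share of luminal regions open was 0.810 and 0.853 times the share of all regions with Dox+E2 and Dox, against 1.29 times in both Y537S libraries without Dox.

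**Figure D2:**
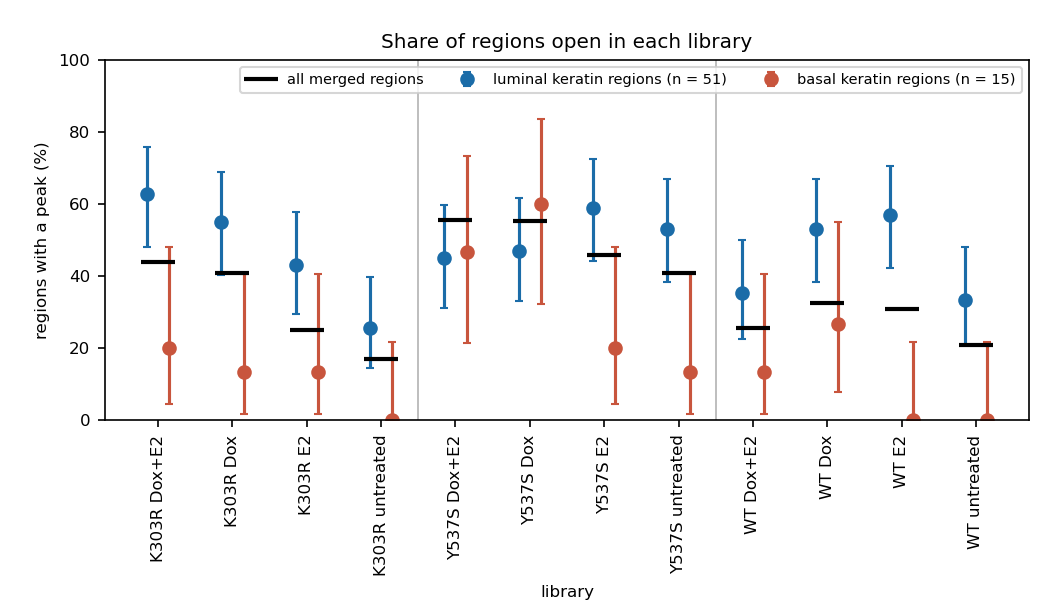
Share of luminal (blue) and basal (red) keratin regions with a peak in each library (%, with exact 95% binomial intervals) and of all merged regions (black bars). The luminal share is above that of all regions except in Y537S with Dox+E2 and Dox, and the basal share is below it except in Y537S with Dox, where 9 of 15 regions are open.

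Of the 15 basal regions, 11 (73.3%) were open only in libraries with Dox and 1 (6.67%) only in libraries without. The 11 include the KRT15 regions 7.5, 6.78 and 5.89 kb below the gene, which lie closer to KRT13. They also include the KRT17 region, closer to KRT16, and the KRT14 region 9.92 kb below the gene, closer to KRT9. KRT13, KRT16 and KRT9 are outside the 10 genes, so these regions count as basal only by the nearest of the 10. Of the 51 luminal regions, 11 (21.6%) were open only with Dox and 8 (15.7%) only without. Of all regions, 42.4% were open only with Dox and 14.0% only without. Among regions open in at least 2 libraries, those open only with Dox were 7 of 10 basal and 3 of 35 luminal regions, and 31.0% of all regions. The lists with Dox were also longer in K303R and Y537S. With every list cut to the 39522 strongest summits, 3 basal regions were left and 2 of them were open only with Dox, while 27.3% of all regions were.

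Gained regions of an ER form had peaks with Dox+E2 and with Dox but not with E2 or untreated, and lost regions the reverse. In all, 8 keratin regions were gained in at least 1 form (25.5% of all regions were) and 5 were lost in at least 1 form (8.26%), 0 of them in 2 forms (0.609%). In K303R 3 luminal and 0 basal regions were gained (8.54% of all regions were) and 0 were lost (0.0799%). In Y537S 1 luminal and 4 of 15 basal regions were gained (18.2%), the basal share being 26.7% with an exact interval of 7.79 to 55.1%, and 3 luminal and 1 basal region were lost (6.71%). In WT 1 luminal and 1 basal region were gained (4.14%) and 1 luminal region was lost (2.08%). Each background share lies inside the interval of its basal share. Of the luminal shares, that of regions gained in Y537S was 1.96% (exact interval 0.0496 to 10.4%), below the 18.2% of all regions. The sum over forms was thus 5 gained and 4 lost luminal regions, but 0 gained and 12 lost with lists of equal length; 7 of those 12 were in Y537S, of 27 luminal regions left, where 9.21% of all regions were lost.

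The gained regions included 2 that changed alike in Y537S and WT, as 4.08% of all regions were gained in at least 2 forms. One is the KRT15 region 6.78 kb below the gene, open in 5 of 6 libraries with Dox and 0 of 6 without, or in 2 with Dox at a −log10 q of at least 5 and 1 with lists of equal length. The other is 9.53 kb inside KRT8 (chr12:52906418-52906896), with a pileup of 14 and 11 in Y537S with Dox+E2 and Dox, 5 and 7 in WT with Dox+E2 and Dox, and no peak in the 4 K303R libraries or in any library without Dox. At a −log10 q of at least 5 it was open in 3 libraries with Dox, and with lists of equal length in 0. In both, the Y537S pileups with Dox exceeded the WT ones, also when scaled. The KRT5 region 8.52 kb above the gene, the KRT6A region and a KRT15 region 5.89 kb below the gene (chr17:41507701-41507998) were gained in Y537S. That KRT15 region had pileups of 10 and 6 in Y537S with Dox+E2 and Dox and of 5 in WT with Dox. The window of KRT13, outside the 10 genes, held the same KRT15 regions, 6.78 and 5.89 kb below KRT15. They are its 2 regions gained in Y537S, and the former is its 1 region gained in WT. They are not further gains. Since regions went to the nearest of the 10 genes, KRT15 regions that lie nearer KRT13 still count as basal gains.

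The Y537S losses fell mostly in KRT7 and KRT8. The region 2.91 kb inside KRT7 (chr12:52235401-52236434) had no peak in Y537S with Dox+E2 or Dox, against pileups of 32 and 24 with E2 and untreated. It had pileups of 14 and 14 in K303R with Dox+E2 and Dox against 18 and 10 with E2 and untreated, and of 8 and 11 in WT with Dox+E2 and Dox against 19 and 9. Its absence was thus seen in 2 of 12 libraries, both Y537S with Dox, and the numbers open, 4 with Dox and 6 without, were the same with lists of equal length. The region 4.61 kb below KRT7 (chr12:52228406-52228771) had pileups of 11 and 11 in Y537S with E2 and untreated and no peak with Dox+E2 or Dox, but was open with Dox in K303R (12 and 7). The region 29.2 kb inside KRT8 (chr12:52925826-52926583) overlaps the window printed above, which is that of 1 of several KRT8 starts. It had no peak in Y537S with Dox+E2 or Dox against 8 and 5 with E2 and untreated. In K303R it had 10 and 6 against 10 and 14, and in WT no peak and 6 against 10 and 5. The KRT8 region 7.98 kb inside the gene, by contrast, kept its peaks in Y537S, with pileups of 12 and 12 against 24 and 25. The KRT14 region 2.59 kb below the gene was the basal loss.

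The K303R gains had low pileups. KRT8 gained the region 23.9 kb inside it (chr12:52921018-52921362), with 6 and 4 in K303R with Dox+E2 and Dox. The same region was lost in WT, with no peak with Dox+E2 or Dox against 7 and 8 with E2 and untreated, and 0.940% of all regions were gained in 1 form and lost in another. KRT19 gained regions 2.09 kb inside it and 7.08 kb above it, each with 6 and 4.

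**Figure D3:**
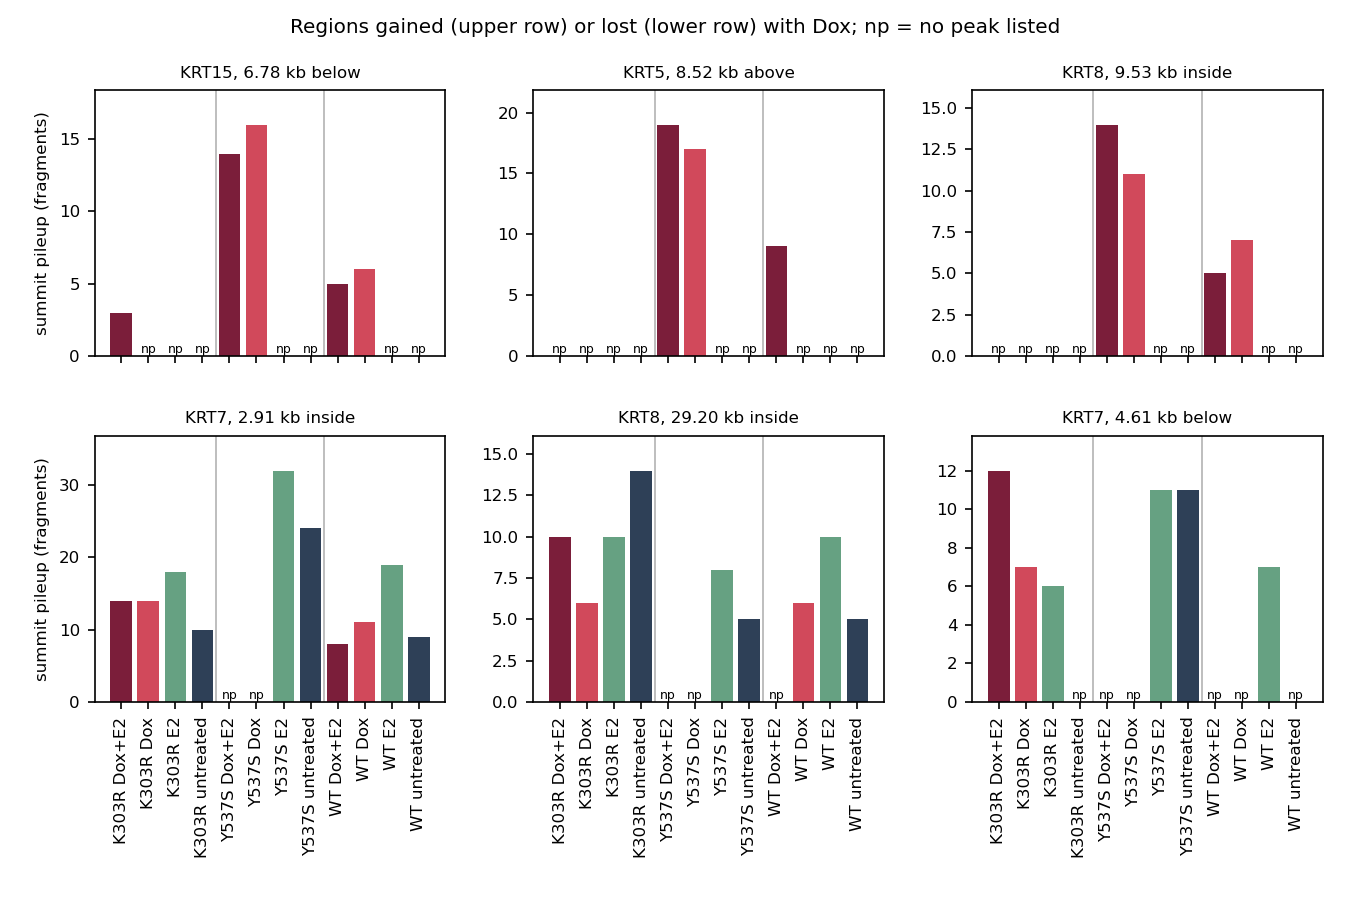
Summit pileup (fragments) in 12 libraries for 3 regions gained with Dox (upper row) and 3 lost with Dox (lower row) in at least 1 ER form, with np where no peak was listed. Each panel has its own axis. The KRT15 region has bars in 5 of 6 libraries with Dox and in no other, and the KRT7 region 2.91 kb inside the gene lacks bars in both Y537S libraries with Dox.

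Over the 3 ER forms, presence was tested for all 166523 regions by exact permutation of the Dox labels within forms (216 arrangements, two-sided, smallest possible p 0.00926). No keratin region and 0% of all regions passed a Benjamini-Hochberg adjusted p of 0.05, and the smallest adjusted p of any region was 0.711, so this test could make no call in these data. At an unadjusted p under 0.05, 3.16% of all regions were open more often with Dox and 0.0739% less often. The KRT15 region 6.78 kb below the gene was the keratin region among them, with a p of 0.0278 and an adjusted p of 0.858 (exact permutation).

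For the 7 keratin regions open in all libraries the signal itself was tested, as the log2 of the scaled pileup, with limma over all 16630 such regions. With Dox the region 3.38 kb inside KRT18 (chr12:52951856-52952718), near its higher-coordinate end, rose. Its pileup was 14 and 15 in K303R with Dox+E2 and Dox against 11 and 7 with E2 and untreated, 26 and 31 against 27 and 19 in Y537S, and 14 and 15 against 15 and 4 in WT. Scaled, this was 0.824 to 1.29 with Dox and 0.5 to 0.794 without, and the groups did not overlap. The log2 difference was 0.59 ± 0.20 (SE; limma, adjusted p = 0.0459; 6.33% of the tested regions were higher and 9.01% lower), higher with Dox in each of the 3 forms, by 0.36 in K303R, 0.76 in Y537S and 0.63 in WT. The call held without K303R untreated or K303R with Dox+E2 and was lost without any other single library (adjusted p up to 0.132), and it was lost in Y537S and K303R alone, where Dox and run tag are not confounded (log2 difference 0.56, adjusted p = 0.211).

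None of the other 6 always-open regions passed with Dox. Their log2 differences were between -0.40 (KRT7, 10.4 kb inside) and 0.13 (KRT8, 1.80 kb below), with standard errors of 0.20 to 0.25. The highest region, 1.07 kb inside KRT18, was lower with Dox by 0.45 in K303R and 0.51 in Y537S and higher by 0.59 in WT, on the log2 scale. The difference between forms did not pass the limma F test of the interaction (adjusted p = 0.200), nor did that of any other always-open keratin region (adjusted p 0.360 to 0.936), while 1.33% of the tested regions passed it.

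Between lines, the region 30.2 kb inside KRT8 was lower in Y537S than in WT. Its scaled pileup was 0.417, 0.417, 0.294 and 0.226 in Y537S with Dox+E2, Dox, E2 and untreated, against 0.615, 0.588, 0.632 and 1.13 in WT in the same order, and 0.636 to 1.13 in K303R. All 4 Y537S values lay below all others. The log2 difference of Y537S minus WT was -1.12 ± 0.31 (SE; limma, adjusted p = 0.0406; 1.01% of the tested regions were higher and 2.39% lower). The call was lost without any 1 of the 4 WT libraries, without Y537S with Dox+E2, E2 or untreated (adjusted p up to 0.230), and with quantile normalization (adjusted p = 0.124). The other KRT8 regions, 7.98 kb inside and 1.80 kb below the gene, had log2 differences of -0.79 ± 0.27 and -0.59 ± 0.25 that did not pass (limma, adjusted p 0.0983 and 0.197). The 2 KRT18 regions had differences of 0.09 ± 0.24 and 0.22 ± 0.25, which did not pass.

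In K303R minus WT, and with E2 added to Dox or given alone, 0 of 7 keratin regions and 0% of all tested regions passed, and 0 of the 7 had an unadjusted limma p under 0.05. With E2 added to Dox the 7 log2 differences ran between -0.27 and -0.02 (SE 0.28 to 0.36). With E2 alone they ran between -0.56 and 0.41, and in K303R minus WT between -0.33 and 0.34. With standard errors of this size, a test that did not pass does not show that the signal was alike.

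**Figure D4:**
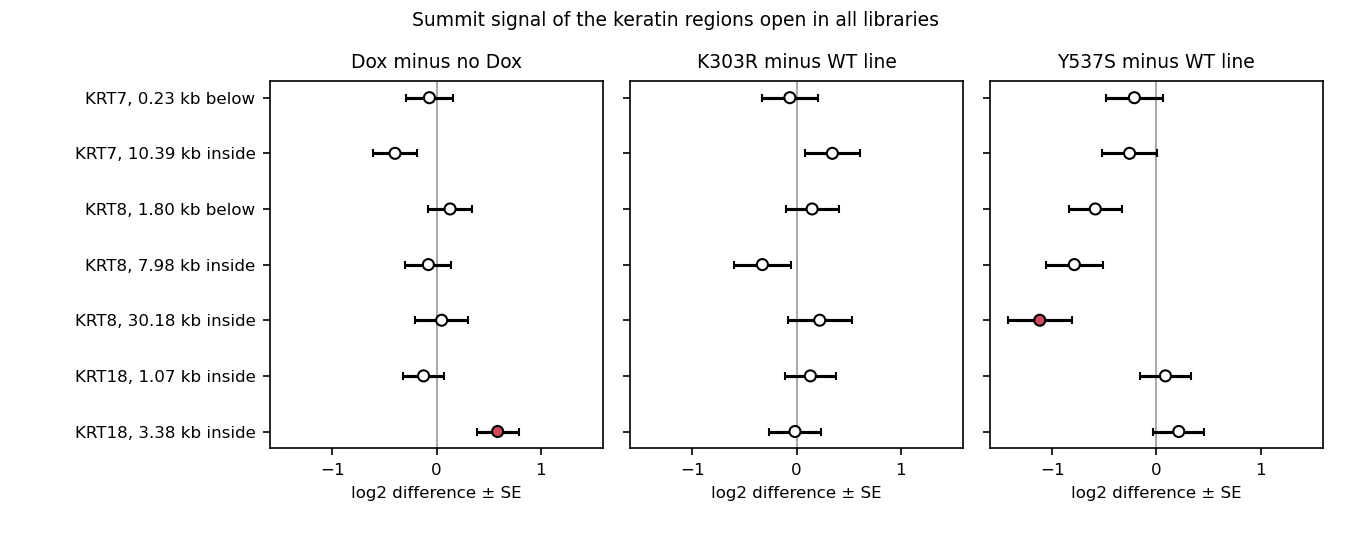
Log2 difference in scaled summit pileup (± SE from limma, 12 libraries) of the 7 keratin regions open in all libraries, for Dox minus no Dox, K303R minus WT and Y537S minus WT. Filled points have an adjusted p under 0.05: KRT18 3.38 kb inside with Dox (0.59) and KRT8 30.18 kb inside in Y537S (-1.12).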

How the data were processed

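For each library the authors deposited 1 list of MACS2 peaks with hg38 coordinates; FastQC, Bowtie2, SAMtools and Picard are also named, per the submitters' processing notes. The sources used here give neither versions nor settings, nor whether reads were shifted to the transposase cut. The score the authors deposited is the −log10 q times 10, truncated. Fold enrichment as deposited equals (summit pileup plus 1) over (background plus 1), a ratio, and every value was a whole multiple of 1 step per library, so pileup and background (0.143 to 0.442) were recovered. Of the values deposited as −log10 p and −log10 q, the q served to filter peaks in the alternatives. Depth in reads is unknown; where no peak is listed the pileup was below about 3 to 5, and the region is not shown to be closed.

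Gene spans came from RefSeq (GRCh38.p14); all 10 members matched. Since the promoter table holds 2 of them, gene ends (summit within 1 kb of either end) replaced promoters. Summits on chromosomes 1 to 22 and X were merged. Scaled pileup is the pileup over the library's median in the 16630 regions open in all 12 libraries. limma 3.58.1 (R 4.3.3; eBayes with trend; ER form and treatment as terms; 6 residual degrees of freedom) and the exact permutation test ran over all regions with Benjamini-Hochberg adjustment, after a test on simulated data; Python 3.11.15 did the rest. Named regions are the widest-open of each gene, those at gene ends, those gained or lost with Dox, and every limma call. The members, gene lists and tests were chosen with earlier results of these data known. Samples are single libraries, so p-values rest on treating ER forms and E2 states as repeats. A few marker genes are not reported here.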

Additional observations from a re-analysis of the deposited data

Results flagged for a closer look

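One keratin region moved in opposite directions in different lines. The region 23.9 kb inside KRT8 was open in K303R with Dox+E2 (pileup 6) and Dox (pileup 4) and in neither K303R library without Dox, whereas in WT it was open with E2 (pileup 7) and untreated (pileup 8) and in neither WT library with Dox. No Y537S library had a peak there. The difference between the lines was not tested. At a −log10 q of at least 5 the region was open in 1 library with Dox and 2 without, and with lists of equal length in 0 and 1. The opposite change was thus not kept with stricter lists, and in WT Dox and run tag cannot be told apart.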

How the results depend on the processing

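No paired analysis was possible because the labels give no replicate numbers; ER form, which is the line, was the block in the tests. At a −log10 q of at least 5, at 10, and with lists of equal length, the 7 always-open luminal regions became 4, 1 and 3 (basal 0 throughout), gained luminal regions (5) became 3, 3 and 0, gained basal regions (5) 3, 2 and 1, and lost basal regions (1) 0, 0 and 0. Lost luminal regions (4) became 7 at 5 and 12 with equal lists. The luminal median percentile was 35.5 at 5. The median share of basal regions open (13.3%) became 0% at 10 and with equal lists. Basal regions open only with Dox (11 of 15) became 3 of 5 at 10, 2 of 3 with equal lists, 5 of 8 in 5 kb windows and 7 of 9 without Y537S. A 20 kb window gave 8 gained luminal regions, summit windows of 250 bp either side 2, and a 5 kb window 1 gained basal region. Leaving out 1 library gave 5 to 13 gained and 4 to 11 lost luminal regions, 5 to 8 gained and 1 to 2 lost basal ones. The number of limma calls with Dox (1) became 0 at 5, in Y537S and K303R alone and without an ER form term, and the Y537S minus WT call (1) became 0 with quantile normalization and at 5 (where the 2 called regions were not among the 4 keratin regions left, so the 0 does not bear on them); each was 0 to 1 when 1 library was left out. The region 4.61 kb below KRT7, open in 2 fewer libraries with Dox (difference -2), was open in 1 more with equal lists. The causes were not tested, apart from the smaller number of regions that stricter lists leave.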
